A study of Homo sapiens with 8 samples.

Results

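Neurexins, neuroligins and teneurins are adhesion proteins that bridge the synaptic cleft. The 9 genes described here are NRXN2, NRXN3, NLGN1, NLGN2, NLGN3, TENM1, TENM2, TENM3 and TENM4. They were taken by gene symbol from a count table of 60659 genes, in which each of the 9 matched 1 gene, and further genes of these families were not analysed here. RNA came from SK-N-SH, a human neuroblastoma line whose cultures hold neuroblast-like and flatter, substrate-adherent cells. All 8 libraries were from cells held for 24 h in differentiation medium with 10 µM all-trans retinoic acid (ATRA), an agonist of the nuclear retinoic acid receptors. The 4 groups had 2 libraries each, described by the labels as biological replicates, and the comparison asks how the level of ZMYND8, a chromatin reader protein, bears on transcription during this differentiation.

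The parental group was SK-N-SH cells with doxycycline (Dox), and the overexpression group was cells that carried FLAG-tagged ZMYND8, also with Dox. By the study's methods, ZMYND8 was delivered with the lentiviral vector pInducer20 and the transduced cells were selected with Geneticin, a step that the label of the parental group does not name. The KD control and ZMYND8 knockdown groups carry no Dox in their labels. The methods describe knockdown by short hairpin RNA from a lentiviral vector, with selection given for SH-SY5Y and neural stem cells but not for SK-N-SH. In SK-N-SH the paper reports loss of ZMYND8 by gene knockout. The labels name neither a hairpin nor what the control carried. Cell line engineering, Dox and experiment therefore differ together between the pair of overexpression groups and the pair of knockdown groups, and their parts cannot be told apart. Within the overexpression pair, the parental label names neither vector nor selection. The level of ZMYND8 therefore cannot be told apart there from transduction and selection either.

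Neurexins sit mainly on the presynaptic membrane, where long extracellular domains bind ligands across the cleft and a short tail recruits scaffold proteins. Neuroligins are their postsynaptic partners: NLGN1 is found mainly at excitatory synapses, NLGN2 at inhibitory synapses and NLGN3 at both. Teneurins are large transmembrane proteins that bind each other and, on the opposite cell, the adhesion G-protein-coupled receptors called latrophilins, and they take part in the choice of synaptic partners. Several of these genes are among the longest in the genome.

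Library totals ran from 38316523 to 56256979 counts. ZMYND8 itself had 72.7 and 69.9 CPM (counts divided by a library size scaled with trimmed means of M values, TMM) in the parental libraries and 4102 and 4155 CPM in the overexpression libraries. In KD control it had 59.5 and 61.0 CPM, against 31.3 and 31.5 CPM in knockdown, so every library matched its label. The knockdown left 0.52 of the control level (log2 fold change -0.94, SE 0.056, adjusted p = 2.20e-06). The labels call the cells epithelial neuroblastoma cells. Of the 5 epithelial markers examined, the keratin KRT18 was abundant in KD control and knockdown libraries at 337 to 405 CPM and KRT8 had 23.8 to 37.0 CPM, EPCAM was near 1 CPM, and the defining junction protein CDH1 had 0 counts in those 4 libraries, at most 1 in parental and 12 and 8 in overexpression. Among enzymes of catecholamine synthesis, DBH had 1047 to 2352 counts and DDC 1009 to 1525 counts in KD control and knockdown libraries, while TH had 0 counts there. Parental libraries held fewer, with 260 and 339 counts for DBH and 123 and 170 for DDC. In overexpression DBH had 1598 and 1332 counts and DDC 1129 and 855. TH had 0 and 1 counts in parental and 5 and 1 in overexpression libraries.

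The 9 genes differ widely in genomic size, and the label "long" holds for 7 of 9, those spanning at least 100 kb in the count table. On GRCh38, NRXN2 spans chr11:64606174-64723197 on the minus strand, or 117.0 kb, and NRXN3 spans chr14:78170373-79868291 on the plus strand, or 1697.9 kb. NLGN1 spans chr3:173396284-174286644, or 890.4 kb, whereas NLGN2 at chr17:7404874-7419860 spans only 14987 bases and NLGN3 at chrX:71144831-71171201 spans 26.4 kb. All 3 neuroligins lie on the plus strand. The teneurins are all long: TENM1 spans 587.9 kb at chrX:124375903-124963817 on the minus strand and TENM2 spans 979.4 kb at chr5:167284799-168264157 on the plus strand. TENM3 spans 659.0 kb at chr4:182143987-182803024 on the plus strand, and TENM4 spans 788.2 kb at chr11:78652829-79441030 on the minus strand.

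Reads were counted over exons, whose summed length runs from 4.01 kb in NLGN3 to 16.41 kb in TENM4. Sequence shared between genes is scarce: at most 3.31% of the exonic 31-base words of any of the 9 genes, in NRXN3, occur more than once in the primary genome. NRXN2 and NRXN3 share 2 such words, and no other pair shares any. Of TENM1 exon length 1.87% lies opposite STAG2, and of TENM3 exon length 1.94% lies opposite its antisense RNA and another unnamed gene. Since no source used here states whether counting used strand, reads over these short stretches cannot be assigned with certainty.

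Promoter windows from RefSeq (GRCh38.p14, 250 bases before to 50 bases after the start) were found for 8 of the 9 genes, 14 windows in all, with no entry for NRXN2. The 4 windows below belong to 2 genes that rose with ZMYND8 overexpression, TENM1 and NLGN3, and 2 that fell with it and rose in knockdown, TENM3 and NLGN1. Each is written 5′ to 3′ on the strand of its gene, and capitals mark CpG dinucleotides.
TENM1, second listed start, chrX:124963768-124964067, minus strand: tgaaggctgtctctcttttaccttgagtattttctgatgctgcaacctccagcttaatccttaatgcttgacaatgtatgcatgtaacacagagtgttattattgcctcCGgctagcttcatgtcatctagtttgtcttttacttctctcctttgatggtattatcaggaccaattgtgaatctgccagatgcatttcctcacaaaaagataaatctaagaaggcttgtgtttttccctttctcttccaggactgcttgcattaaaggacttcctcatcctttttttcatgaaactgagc
NLGN3, chrX:71144591-71144890, plus strand: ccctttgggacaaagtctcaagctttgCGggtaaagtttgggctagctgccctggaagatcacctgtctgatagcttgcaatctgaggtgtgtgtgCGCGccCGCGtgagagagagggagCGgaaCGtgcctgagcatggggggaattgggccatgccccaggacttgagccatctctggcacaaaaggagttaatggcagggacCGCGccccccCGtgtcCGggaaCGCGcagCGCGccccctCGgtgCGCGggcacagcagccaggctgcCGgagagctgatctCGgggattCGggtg
TENM3, first listed start, chr4:182143713-182144012, plus strand: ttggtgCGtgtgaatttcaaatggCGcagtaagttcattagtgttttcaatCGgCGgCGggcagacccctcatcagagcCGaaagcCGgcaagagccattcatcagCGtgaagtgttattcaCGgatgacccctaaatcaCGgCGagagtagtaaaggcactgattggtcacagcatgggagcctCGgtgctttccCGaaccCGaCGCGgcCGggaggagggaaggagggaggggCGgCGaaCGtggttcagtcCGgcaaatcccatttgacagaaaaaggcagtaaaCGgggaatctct
NLGN1, second listed start, chr3:173397494-173397793, plus strand: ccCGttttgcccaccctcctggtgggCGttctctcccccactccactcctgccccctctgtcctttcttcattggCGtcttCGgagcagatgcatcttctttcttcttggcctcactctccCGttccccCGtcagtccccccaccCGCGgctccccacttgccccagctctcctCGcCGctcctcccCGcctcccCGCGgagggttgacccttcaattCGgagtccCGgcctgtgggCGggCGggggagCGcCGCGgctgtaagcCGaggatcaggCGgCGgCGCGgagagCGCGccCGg

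The windows do not share 1 base composition. The TENM1 window, which spans the start of the counted gene model, is 39.3% GC and holds 1 CpG, while the NLGN3 window is 63.3% GC with 21 CpG, the TENM3 window 55.0% GC with 22 CpG and the NLGN1 window 69.3% GC with 28 CpG. Among all 35116 windows of the table the median GC content is 58.7%. The AGGTCA motif recognised by nuclear receptors such as the retinoic acid receptors, searched on both strands, occurs in 1 of the 14 windows, that of NLGN2, and in 13.8% of all windows. The left and right parts of the RE1 element bound by the repressor REST, TTCAGCACC and GGACAGC, searched on both strands, occur in none of the 14, against 0.4% and 6.0% of all windows. The E-box CANNTG, a palindrome, occurs in 12 of the 14 and in 68.7% of all. These are matches of letters within 300 bases and say nothing of binding.

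Levels of different genes were compared as CPM per kb of exon length. On this scale NLGN2 was the highest of the 9 genes in all 4 groups, with means from 17.0 in knockdown to 31.7 in overexpression. TENM3, TENM4 and NLGN3 followed in every group, each between 6.36 and 15.2. NRXN3 stayed below 1 throughout, and TENM2 lay between 0.0404 and 0.127. TENM1 was the lowest gene in parental, KD control and knockdown cells, at 0.0289, 0.0179 and 0.0171, but not in overexpression, where it reached 0.300 and TENM2 was lowest at 0.0584. Neighbours in the order overlapped between libraries in only 2 places, TENM4 with TENM3 in overexpression and NRXN3 with NLGN1 in knockdown. In bulk RNA, a lower level from fewer cells of a type and a lower level per cell cannot be told apart.

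**Figure D1:**
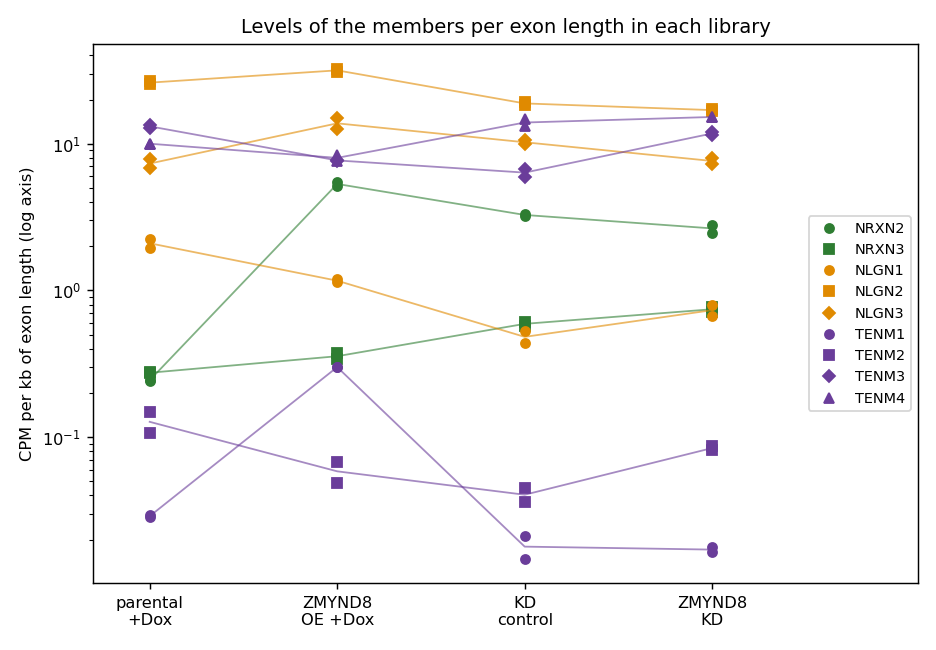
Level of each gene as CPM per kb of exon length (log axis) in the 4 groups; points are single libraries, 2 a group, and lines join group means. NLGN2 stays on top, NRXN2 is near 0.24 in parental cells and between 2.65 and 5.32 elsewhere, and TENM1 stands at 0.300 in overexpression against at most 0.0289 elsewhere.

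The makeup of each family shifted between groups. Parental cells held slightly less NRXN2 than NRXN3 per length, with within-library ratios of 0.890 and 0.888. In overexpression the ratios were 13.8 and 16.2, in KD control 5.61 and 5.45, and in knockdown 3.22 and 3.93. TENM3 exceeded TENM4 in parental cells (ratios of 1.29 and 1.34), was close to it in overexpression (0.913 and 1.01) and lay below it in KD control (0.450 and 0.460) and knockdown (0.789 and 0.755). NLGN3 relative to NLGN2 ran from 0.267 and 0.294 in parental cells to 0.549 and 0.538 in KD control. These ratios are levels within a library and were not tested.

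With ZMYND8 overexpression, all 9 genes differed from parental at an adjusted p under 0.05 in edgeR's quasi-likelihood test. NRXN2, NRXN3, NLGN2, NLGN3 and TENM1 rose, and NLGN1, TENM2, TENM3 and TENM4 fell. Over all 20835 genes tested, 31.7% rose and 29.1% fell by the same measure, so most tested genes moved. A stricter call, used for every comparison, also required the log2 fold change to reach 1 in size and the mean normalised count to exceed 20. It held for 2 higher genes, NRXN2 and TENM1, and 1 lower gene, TENM2, beside 11.8% of all genes called higher and 6.85% called lower. The median log2 fold change was 0.29 over the 9 genes and 0.03 over all genes tested. Whether the libraries of 2 groups overlap is given below, for every comparison, as a description only. With 2 libraries a group, groups can stand apart without a real difference. The share of all genes whose groups did not overlap was not counted.

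**Figure D2:**
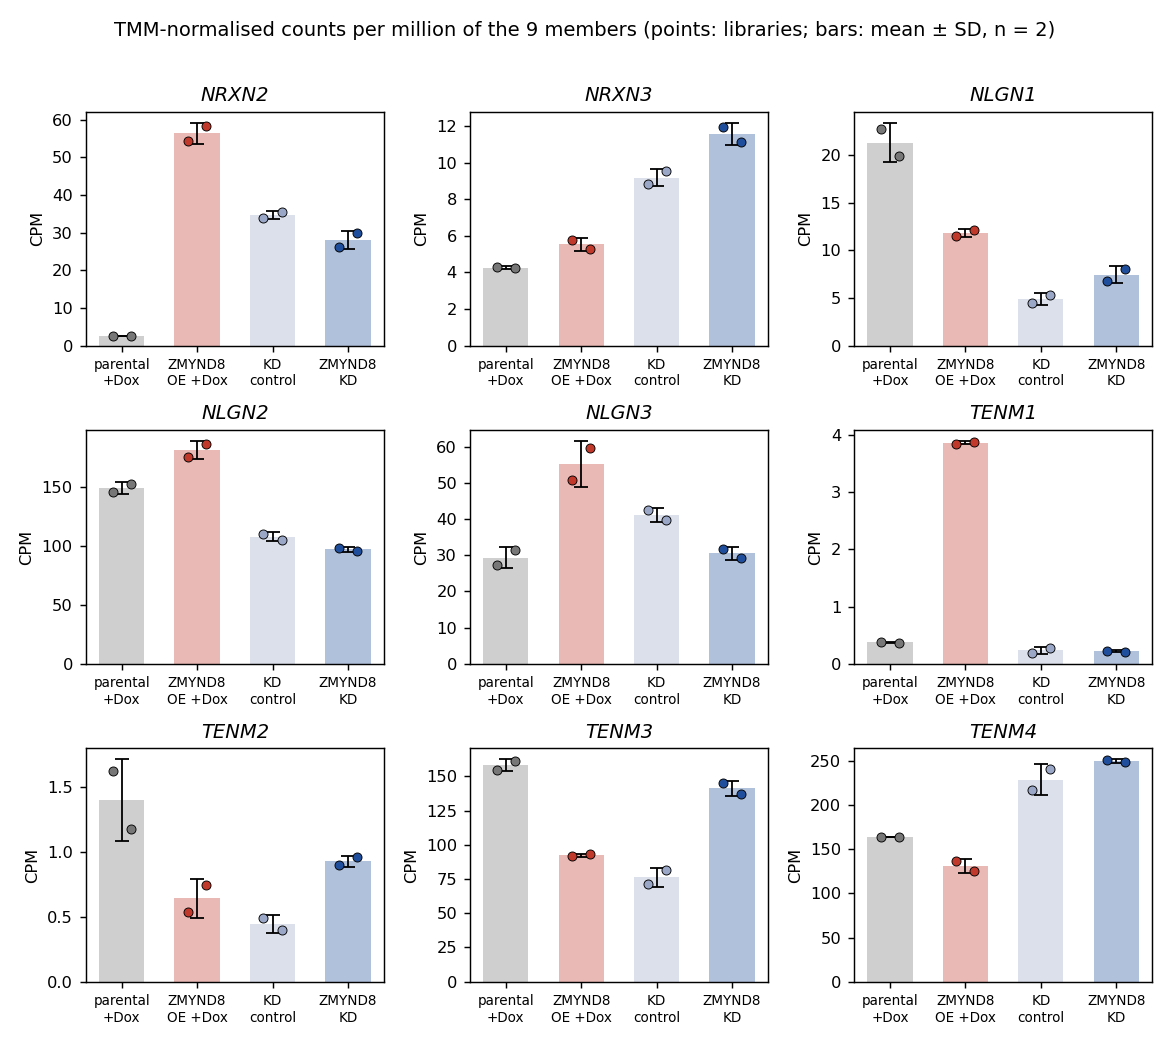
Normalised CPM of each gene in the 8 libraries; points are libraries, bars are means with SD of 2 libraries, and each panel has its own axis from 0. NRXN2 and TENM1 are far higher in overexpression (54.4 to 58.2 and 3.85 to 3.89 CPM) than in parental cells (at most 2.61 and 0.377 CPM), while TENM3 is lower in overexpression and higher in knockdown than in the matching control.

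NRXN2, a presynaptic neurexin, had the largest change of the 9. It had 111 and 132 counts (2.61 and 2.55 CPM) in the parental libraries and 2928 and 2563 counts (54.4 and 58.2 CPM) with ZMYND8 overexpression. The groups are far apart and the libraries within each lie close together. The fitted change was 21.9-fold (log2 fold change 4.45, SE 0.082, adjusted p = 4.46e-11). NRXN3 had 4.31 and 4.22 CPM in parental and 5.78 and 5.27 CPM in overexpression cells, a 1.31-fold rise (log2 0.39, SE 0.13, adjusted p = 0.0251). With DESeq2 the adjusted p of NRXN3 was 0.164, and in edgeR with a correction for summed exon length 0.0634. The ranges of NRXN3 do not overlap, but the difference is small beside that of NRXN2 and its call was lost without parental replicate 1 (adjusted p = 0.0767), parental replicate 2 (0.0881) or overexpression replicate 1 (0.126).

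The neuroligins divided. NLGN3 rose from 27.3 and 31.5 CPM to 50.8 and 59.7 CPM, a 1.89-fold change (log2 0.92, SE 0.088, adjusted p = 6.35e-06) with no overlap between groups. NLGN2, the neuroligin of inhibitory synapses, rose 1.22-fold from 145.8 and 152.7 to 175.8 and 186.4 CPM (log2 0.29, SE 0.052, adjusted p = 0.000748). NLGN1, the excitatory form, went the other way: its 22.7 and 19.8 CPM in parental cells stood against 11.5 and 12.1 CPM in overexpression. That is a 1.79-fold decrease (log2 -0.84, SE 0.089, adjusted p = 1.39e-05), with each overexpression library below each parental one.

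Among the teneurins, TENM1 rose and the other 3 fell. TENM1 had 16 and 19 counts in parental libraries and 207 and 171 counts in overexpression libraries, or 0.377 and 0.368 against 3.85 and 3.89 CPM. The change was 10.4-fold (log2 3.38, SE 0.22, adjusted p = 2.60e-07). TENM1 was thus near the lower limit of what these libraries count in parental cells and readily counted with ZMYND8 overexpression. TENM2 had 69 and 61 counts (1.62 and 1.18 CPM) in parental and 29 and 33 counts (0.539 and 0.750 CPM) in overexpression cells, with log2 fold change -1.11 (SE 0.28, adjusted p = 0.00585). This fold passed the threshold narrowly: it was -0.89 without parental replicate 1 and -0.88 without overexpression replicate 1, which ended the stricter call.

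TENM3 and TENM4 are the abundant teneurins here. TENM3 fell 1.70-fold from 154.9 and 161.0 CPM to 91.7 and 93.2 CPM (log2 -0.76, SE 0.049, adjusted p = 2.75e-07). TENM4 fell 1.24-fold from 164.5 and 164.1 CPM to 137.3 and 125.8 CPM (log2 -0.31, SE 0.054, adjusted p = 0.000575). In both genes each overexpression library lay below each parental one.

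The overexpression values depended on how gene size was treated. When the trend of fold change over genomic span across all genes was taken out, log2 fold changes became -1.94 for NLGN1, -2.27 for TENM2, -1.69 for TENM3 and -1.34 for TENM4. NRXN3, the longest of the 9 genes, turned from 0.39 to -1.10 (adjusted p = 3.37e-05). TENM1 dropped to 2.53, and NRXN2 at 4.38, NLGN2 at 0.32 and NLGN3 at 1.00 moved little. The stricter call then held for 7 genes in place of 3, and over all 20835 genes tested for 4017 in place of 3879. As a background chosen after the data were seen, the 337 tested genes spanning at least 500 kb, a size 6 of the 9 genes reach, had a median log2 fold change of 0.57, with 121 called higher and 48 called lower.

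**Figure D3:**
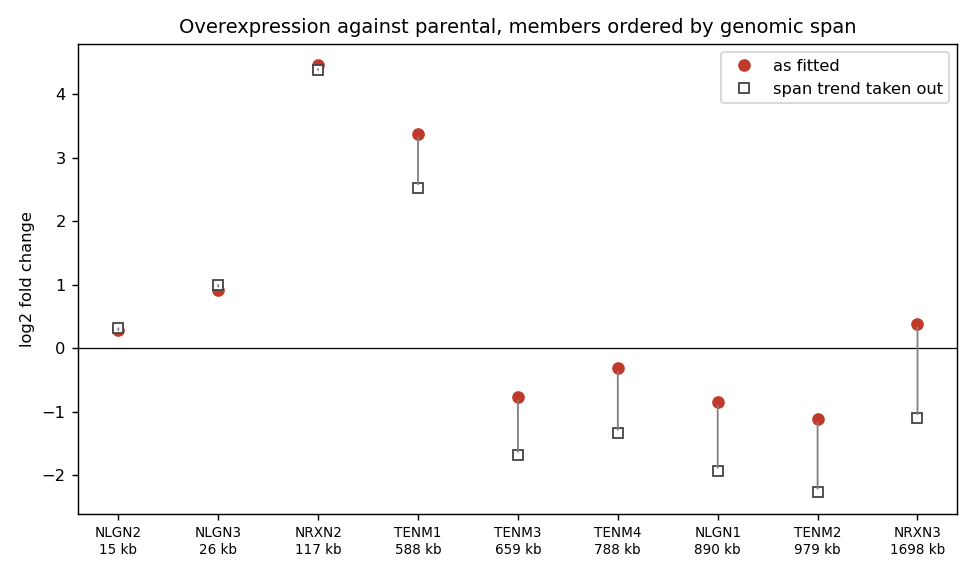
Log2 fold change of each gene, overexpression against parental, as fitted (filled circles) and after the genome-wide trend over genomic span was taken out (open squares), with genes ordered by span in kb. The 6 genes from 588 kb upward all move down, NRXN3 across 0, and the 3 shorter genes hardly move.

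Marker genes of cell state moved in the same comparison. Of 9 adrenergic neuroblastoma markers 5 were called higher, as were 4 of 6 neuronal markers, while 5 of 8 mesenchymal markers were called lower and 1 higher. Summed levels of the adrenergic list were 311 to 313 CPM in parental and 801 to 842 CPM in overexpression libraries, and those of the neuronal list 50.8 to 52.5 and 455 to 502 CPM. The mesenchymal sum was 9596 to 10123 CPM in parental and 3388 to 3591 CPM in overexpression. Of 5 epithelial markers 3 were called lower, with sums of 462 to 465 and 168 to 223 CPM, and the 5 Schwann or glial markers summed to 1.64 to 1.95 CPM in parental and 3.66 to 3.79 CPM in overexpression. Of these, S100B was called higher (log2 3.14, adjusted p = 4.11e-06), from 12 and 11 to 106 and 104 counts. Their part in the changes of the neurexins, neuroligins and teneurins was not tested.

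In knockdown, 6 of the 9 genes differed from KD control. NRXN3, NLGN1, TENM2 and TENM3 rose and NRXN2 and NLGN3 fell, against 13.4% of all 19789 genes tested that rose and 10.8% that fell. The stricter call held for TENM2 alone, higher in knockdown, beside 1.36% of all genes called higher and 0.596% called lower. The median log2 fold change was 0.13 over the 9 genes and -0.01 over all genes tested.

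TENM3 had the best separated change. It stood at 71.4 and 81.3 CPM in KD control and 145.1 and 137.3 CPM in knockdown, a 1.85-fold rise (log2 0.89, SE 0.067, adjusted p = 9.13e-06). Both knockdown libraries stood above both KD control libraries. TENM2 had 26 and 22 counts in KD control and 47 and 50 in knockdown, a 2.08-fold rise (log2 1.06, SE 0.27, adjusted p = 0.0162). Its groups do not overlap, yet the call rests on few counts and was lost without KD control replicate 2 (adjusted p = 0.125) and with DESeq2 (adjusted p = 0.110). TENM4 gave 216.9 and 241.4 against 251.3 and 248.7 CPM (log2 0.13, SE 0.060, adjusted p = 0.153), and TENM1, with 10 and 15 against 12 and 11 counts (log2 -0.07, SE 0.46, adjusted p = 0.938), was too rare for a change of moderate size to be detectable.

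NLGN1 rose 1.52-fold in knockdown, from 4.45 and 5.33 to 6.80 and 8.08 CPM (log2 0.61, SE 0.14, adjusted p = 0.00979). Without KD control replicate 1 its adjusted p was 0.0674. NLGN3 fell from 42.4 and 39.7 to 31.8 and 29.3 CPM (log2 -0.42, SE 0.068, adjusted p = 0.00124). NLGN2 was at 110.3 and 105.2 CPM in KD control and 98.5 and 95.4 CPM in knockdown, groups that do not overlap but whose difference did not pass (log2 -0.15, SE 0.050, adjusted p = 0.0555).

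The neurexins moved in opposite directions. NRXN2 fell 1.23-fold from 33.9 and 35.4 to 26.3 and 29.8 CPM (log2 -0.30, SE 0.073, adjusted p = 0.0128), and NRXN3 rose 1.26-fold from 8.85 and 9.52 to 11.97 and 11.14 CPM (log2 0.33, SE 0.099, adjusted p = 0.0327). Neither pair of groups overlaps. With DESeq2 the adjusted p was 0.0103 for NRXN2 and 0.0608 for NRXN3. Both calls were weak: that of NRXN2 was lost without KD control replicate 2 (adjusted p = 0.0992) or knockdown replicate 1 (0.0617), and that of NRXN3 without KD control replicate 1 (0.170), KD control replicate 2 (0.0822) or knockdown replicate 1 (0.170). In this comparison no marker reached the stricter call in edgeR or DESeq2, while 4 of 7 tested adrenergic, 6 of 8 mesenchymal, 2 of 4 epithelial and 2 of 5 neuronal markers passed the adjusted p in edgeR. The mesenchymal markers went both ways: VIM, CD44, YAP1 and COL1A1 rose by 0.39 to 0.55 on the log2 scale, and PRRX1 (-0.98) and SNAI2 (-0.41) fell. Their sum, carried by the abundant COL1A1, VIM and FN1, was 4675 to 4823 CPM in KD control and 5863 to 6228 CPM in knockdown, and the adrenergic sum 597 to 623 and 480 to 537 CPM, and their part was not tested.

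**Figure D4:**
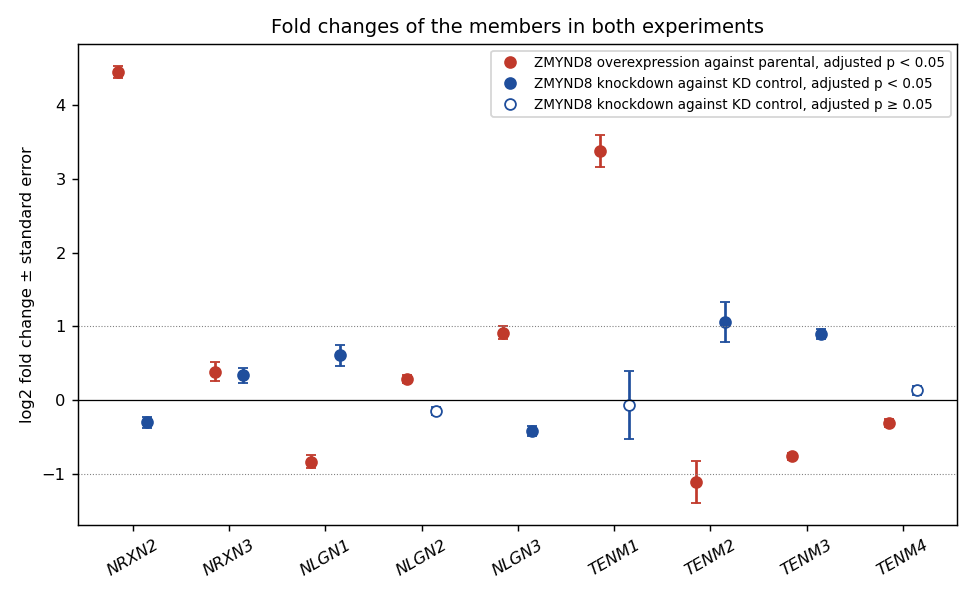
Log2 fold change with its standard error for overexpression against parental and knockdown against KD control, from 2 libraries a group; filled points have an adjusted p under 0.05 and dotted lines mark a log2 fold change of 1 in either direction. NRXN2, NLGN1, NLGN3, TENM2 and TENM3 lie on opposite sides of 0 in the 2 experiments, and NRXN3 lies above 0 in both.

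Of the 6 genes that passed an adjusted p of 0.05 in both experiments, 5 had opposite signs. NRXN2 and NLGN3 rose with overexpression and fell in knockdown, and NLGN1, TENM2 and TENM3 fell with overexpression and rose in knockdown. NRXN3 rose in both, though with DESeq2 it passed in neither (adjusted p = 0.164 in overexpression and 0.0608 in knockdown). Of all 18504 genes tested in both, 11.8% passed in both with opposite signs, which is 61.7% of the 3529 genes that passed in both. The experiments share no library.

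The difference between the effects was then tested itself, in 1 fit of all 8 libraries. It passed an adjusted p of 0.05 for 8 of the 9 genes, beside 11081 of all 22619 genes tested. The stricter call held for 3 genes with a higher overexpression effect, NRXN2, NLGN3 and TENM1, and 3 with a lower one, NLGN1, TENM2 and TENM3, against 11.1% and 7.67% of all genes. The difference on the log2 scale was 4.75 (SE 0.12) for NRXN2, 3.44 (SE 0.44) for TENM1 and 1.33 (SE 0.12) for NLGN3. It was -2.18 (SE 0.40) for TENM2, -1.66 (SE 0.086) for TENM3 and -1.45 (SE 0.17) for NLGN1. NLGN2 at 0.43 (adjusted p = 0.000209) and TENM4 at -0.45 (adjusted p = 0.000437) passed with smaller differences. For NRXN3 the difference was 0.05 (SE 0.16, adjusted p = 0.846), and its sign depended on the scaling used.

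The control groups already differed from each other. KD control cells had 13.4 times the NRXN2 of parental cells (log2 3.74, SE 0.094, adjusted p = 1.72e-13), at 33.9 and 35.4 against 2.61 and 2.55 CPM. NRXN3 was 2.16-fold higher (log2 1.11, SE 0.11), while NLGN1 was 4.34-fold lower (log2 -2.12, SE 0.12), TENM2 3.12-fold lower (log2 -1.64, SE 0.28) and TENM3 2.07-fold lower (log2 -1.05, SE 0.061). These 5 were called, 2 higher and 3 lower, where 10.6% and 9.78% of all 22619 genes were. TENM3 fell short of the threshold without KD control replicate 1 (log2 -0.96). NLGN3 and TENM4 were higher by 0.48 each and NLGN2 lower by 0.47 on the log2 scale, and TENM1 gave -0.68 (adjusted p = 0.0982). With the trend over genomic span taken out TENM4 gave -0.13 (adjusted p = 0.0743), NRXN3 0.31 and TENM1 -1.21 (adjusted p = 0.00469). Marker lists differed too, with 5 of 9 adrenergic and 4 of 6 neuronal markers called higher and 4 of 8 mesenchymal markers called lower, and what sets the control groups apart cannot be told apart from the experiment, the Dox and the vector.

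Partners of these proteins were followed in 7 lists of 69 genes. With ZMYND8 overexpression 27 of the 67 tested were called higher and 5 lower, beside 11.8% and 6.85% of all genes. However, 12 of the 67 passed the filter on low counts through the overexpression libraries, had at most 37 counts in any other library (8 of them 0 in both parental libraries) and were not tested in knockdown, so they could hardly count as lower there. Over the 55 partners tested in both experiments, a restriction chosen after the data were seen, 21 were called higher and 5 lower, with a median log2 fold change of 0.54 against 0.03 over all genes. In knockdown 3 of these 55 were called, all higher, with a median of 0.00 against -0.01 over all genes, where 1.36% of all genes were called higher and 0.596% lower. The difference of effects was called higher for 20 and lower for 7 of the 55, beside 11.1% and 7.67% of all genes, with a median of 0.53 against 0.06. Between the control groups 14 were higher and 4 lower, beside 10.6% and 9.78% of all genes.

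Of the 6 secreted partners of neurexins and related receptors tested in both experiments, 4 were called higher and 1 lower with overexpression. Cerebellin CBLN1, which links neurexins to postsynaptic glutamate delta receptors, had 8 and 5 counts in parental and 227 and 193 in overexpression libraries (log2 4.94, SE 0.28, adjusted p = 1.01e-07). In knockdown none of the 6 passed the adjusted p in edgeR or DESeq2, and 1 had an unadjusted p under 0.05 in edgeR. C1QL1, a C1q-like secreted protein, had a higher overexpression than knockdown effect (difference 1.30, adjusted p = 0.00135). Of the 8 membrane ligands and neuroligin regulators tested in both, 2 were called higher and 1 lower. The calsyntenin CLSTN2 went from 36 and 32 to 960 and 815 counts (log2 4.65, SE 0.15), and it was also 18.7-fold higher in KD control than in parental cells. LRRTM4, a postsynaptic leucine-rich repeat protein, had 21 and 24 counts in parental, 530 and 503 in overexpression, 82 and 129 in KD control and 61 and 89 in knockdown libraries, and its effects differed by 4.91 (SE 0.34). MDGA1, which binds neuroligins and blocks neurexin binding, had a lower overexpression than knockdown effect (difference -1.17, SE 0.097) and was 2.48-fold lower in KD control than in parental cells.

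Of the 6 teneurin partners, 2 were called higher with overexpression. Latrophilin ADGRL1 rose 2.20-fold, from 3293 and 4247 to 9298 and 7745 counts (log2 1.14, SE 0.052, adjusted p = 1.80e-08), and its effects differed by 1.20 (SE 0.073). FLRT2, a latrophilin ligand, rose 3.09-fold in knockdown (log2 1.63, SE 0.16, adjusted p = 5.92e-05), from 102 and 138 to 384 and 332 counts. Both lie far under its 2006 and 2265 counts in parental cells, where it was 20.4-fold higher than in KD control. The latrophilin ADGRL3 was the reverse, 6.32-fold higher in KD control than in parental cells. Those fold changes between controls exceed every change of a teneurin gene between them.

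Other trans-synaptic adhesion genes were followed as a comparison. In the list of LAR-type phosphatases and ligands 4 of the 13 genes tested in both were called higher and 2 lower with overexpression. LRRC4B rose 4.89-fold (log2 2.29, SE 0.059), and IL1RAPL1, a presynaptic phosphatase ligand, fell 3.78-fold (log2 -1.92, SE 0.16) from 582 and 766 to 240 and 131 counts. In knockdown NTRK3, a neurotrophin receptor, rose 3.37-fold from 125 and 134 to 439 and 405 counts (log2 1.75, SE 0.13). NTRK3 also rose with overexpression, from 24 and 18 to 147 and 112 counts (log2 2.56, SE 0.26, adjusted p = 9.72e-06). IL1RAPL1 rose in knockdown, from 962 and 860 to 2302 and 2119 counts (log2 1.33, SE 0.085, adjusted p = 3.57e-06). Effects differed by -3.25 for IL1RAPL1 and 2.36 for LRRC4B. IL1RAP was 3.30-fold lower and NTRK3 5.33-fold higher in KD control than in parental cells. Of the 4 SynCAMs, immunoglobulin adhesion proteins, 3 were called higher: CADM3 went from 32 and 51 to 5115 and 4740 counts (log2 6.85, SE 0.12), its effects differed by 6.71, and it was 15.1-fold higher in KD control than in parental cells.

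Scaffold proteins that bind the tails of these adhesion molecules were followed on both sides. Of 5 presynaptic scaffold genes tested in both experiments, none was called with overexpression. LIN7A was called there, with 1 and 0 counts in parental and 79 and 53 in overexpression libraries. It is 1 of the 12 partners that passed the filter through the overexpression libraries, and it was not tested in knockdown. In knockdown none of the other 5 passed the adjusted p with edgeR or DESeq2, with 1 at an unadjusted p under 0.05 in edgeR. Of 13 postsynaptic scaffold genes tested in both, 6 were called higher and 1 lower. SHANK1 rose 26.2-fold (log2 4.71, SE 0.11), from 55 and 71 to 1766 and 1633 counts, and its effects differed by 4.86. DLG1 fell 2.11-fold (log2 -1.08, SE 0.055), from 13350 and 15200 to 7948 and 6113 counts, and its effects differed by -1.47. SHANK2 was 18.0-fold higher in KD control than in parental cells. Whether the lists differ from each other was not tested.

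**Figure D5:**
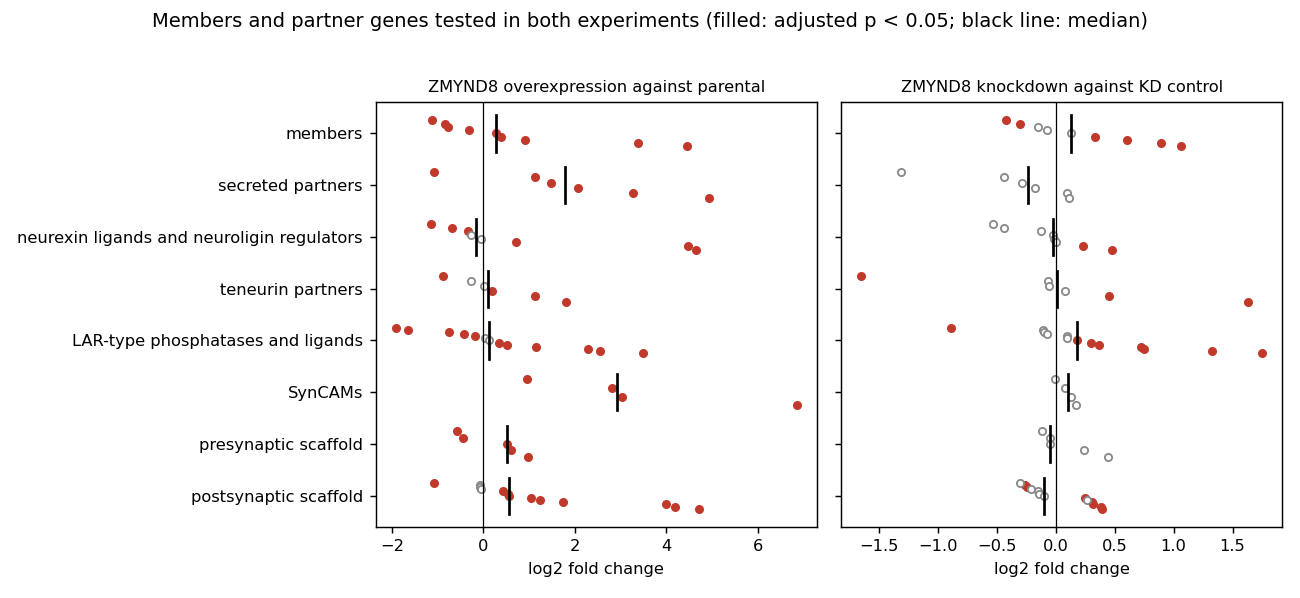
Log2 fold changes of the 9 genes (members) and of the 55 partner genes tested in both experiments, by list, overexpression against parental on the left and knockdown against KD control on the right, on separate scales; filled points have an adjusted p under 0.05 and black lines are medians. Secreted partners and SynCAMs have medians of 1.78 and 2.91 with overexpression, and in knockdown list medians lie between -0.23 and 0.18.

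For each of the 9 genes, the gene with the most similar profile over the 8 libraries was found by Pearson's r of log2 CPM among about 13554 others with a mean normalised count above 100. NRXN2 was most like GNG8, a G-protein gamma subunit (r = 0.9996), NRXN3 like ZNF462 (0.9962), NLGN1 like CPS1 (0.9946), NLGN2 like SPATA2L (0.9976) and NLGN3 like BRINP1 (0.989). TENM1 was most like GSE1 (0.9962), TENM2 like MRPS27 (0.9779), TENM3 like RIC1 (0.9885) and TENM4 like CHORDC1 (0.9961). The 8 libraries fall into 4 groups of 2, so these values mainly record the order and spacing of 4 group levels and are given as a description.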

How the data were processed

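Total RNA was depleted of ribosomal RNA, reverse transcribed with random hexamers and sequenced. By the study's methods, reads were trimmed with removal below Phred 25, aligned to GRCh38 with HISAT2 and counted per gene with featureCounts on GENCODE release 28, and DESeq2 was used on the counts. The authors deposited raw counts per gene, with no normalisation; strand and multi-mapping settings of the counting are not given in the sources used here. Of 60662 lines, 3 that belong to 1 split gene were left out. Of the 60659 identifiers 60462 were given symbols from GENCODE release 44, and spans and exon lengths from the count table.

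Counts were tested in R 4.3.3 with edgeR 4.0.16 (filterByExpr, TMM, glmQLFit and glmQLFTest, two-sided, Benjamini-Hochberg over all genes tested). Genes were called at an adjusted p under 0.05 where the log2 fold change reached 1 in size and the mean normalised count exceeded 20. Each experiment was fitted on its own 4 libraries, and the difference of effects and the contrast of the controls on all 8. CPM are TMM-normalised; group values rest on 2 libraries. Genome-wide biological coefficients of variation were 0.0565 for overexpression and 0.0613 for knockdown. The variance between replicate libraries was 6.05 to 8.86 times that of counting error. This spread cannot tell separate cultures from repeated library preparations. Tested on counts simulated for overexpression against parental over 20415 genes, the fit called 200 of 200 changed genes and 2 unchanged ones. For knockdown these numbers were 200 and 6, for the difference of effects 192 and 5, and for the controls 199 and 3. The simulated dispersion was 0.03, and the changed genes had ample counts and a log2 change of 2 in size. The simulation therefore does not cover smaller changes or genes with few counts, such as TENM1 and TENM2. Alternatives were DESeq2 1.42.0, other scalings, filters and thresholds, corrections for length, thinning, a replicate block and leaving out each library. The 9 genes and all gene lists were chosen with earlier results of these data known. In the text, each of the 9 genes is named, as is the called partner with the largest increase and decrease in each list and comparison among genes with a mean normalised count above 100. LIN7A is named outside this rule. Protein sequences were not used here.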

Additional observations from a re-analysis of the deposited data

How the results depend on the processing

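Fold changes of the 9 genes in the 4 comparisons were recomputed 593 times under the alternatives. Direction and side of an adjusted p of 0.05 were kept in 552. Where a fit gave no adjusted p, as for TENM1 in knockdown with DESeq2, direction alone was compared. With direction kept, 21 no longer passed that adjusted p and 6 newly passed it, and 14 reversed. With the trend over genomic span taken out, NRXN3 gave -1.10 in overexpression (-1.10 with the replicate block too) and -1.27 for the difference of effects (-1.26), and TENM4 gave -0.13 between the controls (-0.12). The difference for NRXN3, 0.05 as reported, was also -0.015 with RLE scaling, -0.016 with DESeq2, -0.036 with no filter and -0.023 without mitochondrial genes and ZMYND8. On leaving out a library it ran from -0.025 to 0.11, and it turned without KD control replicate 2, knockdown replicate 2 or overexpression replicate 1. TENM1 in knockdown ran from -0.30 to 0.21, the latter without KD control replicate 2.

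Called members in overexpression numbered 7 with the span correction, beside 4017 of all 20835 genes tested. They numbered 8 with block and span correction, beside 4036, and 9 with no fold threshold. In knockdown they numbered 0 with DESeq2, with either span fit, with a log2 fold change of at least 2, or with a mean above 100, and 6 with no fold threshold, and from 0 to 1 on leaving out a library. For the difference a fold threshold of 2 left 3, and between the controls 2, against 8 with no fold threshold. Called partners with no fold threshold were 51, 19, 45 and 40 in overexpression, knockdown, difference and controls. They were counted over all 67, 55, 67 and 67 partners tested. Except in knockdown, these include the 12 that passed the filter through the overexpression libraries. The adjusted p alone was passed by 12663 of 20835, 4799 of 19789, 11081 of 22619 and 14706 of 22619 genes. With a log2 fold change of at least 2 the called partners were 19, 0 and 16 in the first 3. With a mean above 100 there were 19 in overexpression. Both were counted over the same full lists, and the shares of all genes under these thresholds were not counted. The highest level over the lowest rose per kb of genomic span to 15735 in parental, 18361 in overexpression, 18319 in KD control and 17279 in knockdown, from 905, 543, 1053 and 994 per kb of exon. The causes were not tested.

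Same-numbered libraries deviated together weakly (r = 0.05 for parental and overexpression, 0.194 for KD control and knockdown) and share only a number. The replicate block left 3 members called in overexpression and moved NLGN2 in knockdown to an adjusted p of 0.0101, and upper quartile scaling moved it to 0.0348. With 2 libraries a group, counts of 10 to 69 limit TENM1 and TENM2 outside overexpression, and TENM1 was not tested in knockdown after thinning to the smallest total. The sign of each overexpression call of NRXN2, TENM1 and TENM2 held under every alternative run.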
